A study of Homo sapiens with 2 samples.

Results

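Peaks in long non-coding RNA (lncRNA) genes made up 1087 of the 7793 peaks listed for V5-tagged RRN3 (13.9%, 95% Wilson interval 13.2–14.7%). A peak was counted here when its midpoint lay in a GENCODE release 44 lncRNA gene on the strand of the peak, in no protein-coding gene body on either strand, and in no gene of a microRNA, snoRNA, scaRNA, snRNA, vault RNA, rRNA or other small RNA. Of these peaks, 95 lay in an lncRNA exon and 992 in an lncRNA intron. The list came from a PAR-CLIP experiment in SK-OV-3, a human cell line established from an ovarian adenocarcinoma. Its cells carried a lentiviral vector that stably gave RRN3 with the V5 tag at its N-terminus, driven by the EF1a promoter. Both samples came from these cells after labelling with 100 μM 4-thiouridine for 14 h, crosslinking with 365-nm UV light at 0.2 J/cm2, and treatment of the lysate with RNase A and DNase I. The groups were 1 anti-V5 immunoprecipitate library and 1 input library, and the cells carried the tagged RRN3 in both, so no library without it and no replicate stands behind any value. Intervals therefore cover only the number of peaks or bases counted. Positions are on GRCh38 and count from 1.

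RRN3 is the factor that brings RNA polymerase I to the promoter of the ribosomal RNA genes. In PAR-CLIP, the uridine analogue 4-thiouridine is built into new RNA and joins to a bound protein under UV light, so that short RNA pieces held by the protein can be recovered and sequenced. lncRNA genes give transcripts with no long open reading frame. Their exons are spliced into the mature lncRNA, while their introns are usually removed and degraded in the nucleus. Some lncRNA genes serve as hosts, whose primary transcripts are cut to give microRNAs or snoRNAs.

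Many of the peaks came in touching pairs. Joining peaks of a strand that touched gave 657 sites, of which 240 held 1 peak, 404 held 2 and 13 held 3. In all 404 sites of 2 peaks the peaks abutted without overlap, and in 393 of them the authors' p-values of both peaks differed by less than 10-fold or were both listed as 0. The sites had a median length of 17 bases (quartiles 14 and 19, range 5–67), and 587 (89.3%, 86.8–91.5%) were between 12 and 22 bases long. A site was called exonic when it held an exonic peak, which gave 59 exonic and 598 intronic sites. Touching peaks are not independent, so intervals over peaks are narrower than those over sites, for which the exonic share was 8.98% (7.03–11.4%).

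The sites below come from 12 of the 19 genes with a peak in the lists described later, shown to let the letters of the peaks be read. Each is the site of lowest p-value in its gene, taking genes where it is exonic first and then the others by p-value. The site is in capitals and the 20 bases on each side are in lower case, 5′ to 3′ on the strand of the peak. The first 4 are exonic.
CRNDE, chr16:54919423-54919434, minus strand: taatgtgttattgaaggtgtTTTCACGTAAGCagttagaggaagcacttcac
GNAS-AS1, chr20:58839144-58839160, minus strand: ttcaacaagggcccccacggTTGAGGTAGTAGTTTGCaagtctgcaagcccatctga
MIR9-3HG, chr15:89361925-89361942, plus strand: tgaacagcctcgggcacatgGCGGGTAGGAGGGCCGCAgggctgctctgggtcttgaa
SNHG1, chr11:62853906-62853969, minus strand: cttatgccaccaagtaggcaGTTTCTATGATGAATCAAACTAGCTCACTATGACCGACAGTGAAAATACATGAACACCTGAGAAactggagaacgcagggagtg
MIR924HG, chr18:39575635-39575653, minus strand: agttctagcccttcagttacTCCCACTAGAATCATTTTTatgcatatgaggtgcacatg
MIR100HG, chr11:122353691-122353709, minus strand: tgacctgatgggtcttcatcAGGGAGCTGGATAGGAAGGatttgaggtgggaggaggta
SNHG14, chr15:25162890-25162906, plus strand: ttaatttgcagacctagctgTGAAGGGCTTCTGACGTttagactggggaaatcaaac
DLEU2, chr13:50118971-50118988, minus strand: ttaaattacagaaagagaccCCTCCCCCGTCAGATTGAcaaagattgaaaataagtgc
MIRLET7BHG, chr22:46088935-46088949, plus strand: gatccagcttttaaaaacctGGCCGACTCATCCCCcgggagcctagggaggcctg
LINC00511, chr17:72632096-72632112, minus strand: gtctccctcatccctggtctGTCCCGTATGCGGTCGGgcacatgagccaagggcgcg
CASC15, chr6:21868420-21868436, plus strand: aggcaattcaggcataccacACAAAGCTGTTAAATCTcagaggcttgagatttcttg
DLEU1, chr13:50231521-50231538, plus strand: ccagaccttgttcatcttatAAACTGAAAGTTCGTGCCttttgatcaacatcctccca

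Most of the peaks were intronic, but exons were denser per base. Exons held 8.74% of the peaks (7.20–10.6%) and 5.73% of the eligible bases, which are the lncRNA gene bases of either strand outside the excluded genes on the 19 chromosomes with peaks. This is 4.37 peaks per Mb of exon (exact Poisson interval 3.54–5.35) against 2.77 per Mb of intron (2.60–2.95), a ratio of 1.58 (1.28–1.94). Both were below the densities in protein-coding genes, which held 12.4 peaks per Mb of exon (11.7–13.1) and 4.60 per Mb of intron (4.46–4.73). Without the peaks of POLQ and SUMO3, which carry many coding peaks, protein-coding exons held 10.5 per Mb. The 19 chromosomes are 1 to 6 and 10 to 22. No peak was listed on chromosomes 7, 8, 9, X or Y, so lncRNA genes there, PVT1 and XIST among them, are not eligible. The abundance of the transcripts was not measured in these files, so a lower density and fewer transcripts cannot be told apart.

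Of 11246 lncRNA genes with eligible bases, 573 held a peak (5.10%) and 66 held an exonic peak (0.587%). In most of these genes the signal was a single site: 162 genes held 1 peak, 315 held 2, 48 held 3, 32 held 4 and the others 5 to 8. Genes with a peak were long, with a median of 117 kb (quartiles 38.9 and 255 kb), against 8.41 kb (2.27 and 29.7 kb) in the 10673 genes without one. The share of genes with a peak went from 0.516% of 4262 genes under 5 kb to 25.4% of 1036 genes between 100 and 500 kb and 48.9% of 88 genes over 500 kb. Per Mb of eligible bases the order was the opposite, from 4.65 peaks in the shortest class to 2.32 in the longest. The peaks were thus spread thinly over long genes rather than gathered in a few.

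The genes with the most sites were very long, and nearly all of their peaks were intronic. DISC1FP1 on chromosome 11, 664 kb long, held 8 peaks in 5 sites, 1.21 peaks per 100 kb, with p-values from 1.92e-131 to 1.93e-02. ENSG00000271860 on chromosome 6, 1118 kb long, held 8 peaks in 4 sites. LINC02141 on chromosome 16, 199 kb long, held 7 peaks in 4 sites, and its strongest p-value was listed as 0. ENSG00000259986 on chromosome 15 and LINC01320 on chromosome 2 also held 7 peaks in 4 sites each, at 3.45 and 0.679 peaks per 100 kb of eligible bases. LINC01470, with 6 peaks, and ENSG00000229425, with 5, held 4 sites each, and 16 further genes held 3 sites each. Of these, MIR924HG and ENSG00000273118 held 6 peaks, and AQP4-AS1, ENSG00000231918, ENSG00000254186 and 4 genes not named here held 5. Exonic peaks occurred in AQP4-AS1, which held 2, and ENSG00000229425, which held 1, and in none of the other genes named so far with 3 or more sites. The same letters can belong to more than 1 gene: 71 of the 1087 peaks lay in 2 or 3 overlapping lncRNA genes, as did the 4 peaks shared by ENSG00000233891 and ENSG00000271955.

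Exonic peaks were near transcript starts more often than exon bases were. Of the 95 exonic peaks, 49 (51.6%, 41.7–61.4%) were within 1 kb of an lncRNA transcript start, against 31.4% of the eligible exon bases. Touching peaks are counted apart here, and the 6 peaks in tRNA genes and SNORD29 described below are among the 49. Over the exonic sites, the median distance to the nearest transcript start was 792 bases (quartiles 184 and 5996). Intronic peaks were within this distance in 4.94% of cases (3.76–6.47%), against 3.73% of intron bases. By site, 19 of the 59 exonic sites lay in a first exon, 21 in a last exon, 5 in an inner exon, and 14 in exons that were first in 1 transcript and last in the same or another one. The intronic sites lay at a median of 6.64 kb (quartiles 1.96 and 16.8 kb) from the nearest exon edge of their gene. Within 100 bases of any lncRNA exon edge of the strand, where splice sites are, lay 19 of the 598 (3.18%, 2.04–4.91%), against 1.80% of the eligible intron bases. Along the gene from its 5′ end, the first of 5 equal parts held 275 of 1159 placements (23.7%, with 20.3% of the bases) and the middle part 199 (17.2%, with 20.2% of the bases).

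Few of the peaks, and few of the eligible bases, lay next to other genes. Within 10 kb downstream of a protein-coding gene on the same strand there were 25 peaks (2.30%, 1.56–3.37%), against 1.20% of the eligible bases. Within 1 kb of a small RNA gene on the same strand there were 7 (0.644%, 0.312–1.32%), against 0.320% of the bases. In exons these 7 numbered 5 of 95 (5.26%, 2.27–11.7%), against 1.25% of exon bases, and 2 of the 5 were the peaks of SNHG1. In the RefSeq promoter windows, which run from 250 bases before to 50 after a gene start, 2 sites were found, and 1 of them lay on the strand of the promoter. The share of eligible bases in these windows was not computed, so the count of sites cannot be called low or high.

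By the authors' p-value, peaks in lncRNA genes ranked like those in introns of protein-coding genes and below those in small RNA genes. Their median p-value was 2.80e-44, against 8.81e-46 and 8.33e-69 in those classes, and 523 (48.1%, 45.2–51.1%) were in the stronger 3896 of all listed peaks. The share was 47.4% (37.6–57.3%) for exonic and 48.2% (45.1–51.3%) for intronic peaks, 48.4% (47.0–49.9%) in protein-coding introns and 62.0% (58.1–65.8%) in small RNA genes. The intervals of exonic and intronic peaks overlapped widely. The p-value was listed as 0 for 68 of the peaks (6.26%), against 7.63% of all other peaks. The share was 3.62% in protein-coding introns and 21.2% in small RNA genes. Of the 68 peaks, 67 were intronic, as were 91.3% of all peaks in lncRNA genes. In all, 41 lncRNA genes held a peak with this value. Besides the genes named above, ENSG00000223786, ENSG00000230975 and ENSG00000258422 were among them, chosen from this tie by number of peaks and then by symbol, each with 4 intronic peaks in 2 sites. The single exonic peak with this value lay in CRNDE, a gene known for its raised expression in colorectal tumours. The authors' fold enrichment of these peaks ran from 2.00 to 4.00 with a median of 2.98, and did not separate the classes, with medians of 3.08 in lncRNA exons and 3.00 in protein-coding introns.

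The sequences of the sites held more CpG than their surroundings. CpG is rare in most of the human genome, because methylated cytosine in it mutates readily. In the 598 intronic sites, the number of CpG was 0.832 (0.753–0.920) times the number that a random order of their letters would give. In the 20 bases on each side the ratio was 0.245 (0.215–0.278), and in windows of the same length 1 kb to each side it was 0.253 (0.220–0.290). In steps of 5 bases, 4.95% and 4.38% of positions began a CpG just left and right of the centre, against 0.803% at 13 bases before it. The 409 intronic sites farther than 10 kb from every transcript start of their gene gave 0.773 (0.681–0.878). Exonic sites gave 0.946 (0.733–1.22), with 0.386 (0.293–0.509) in their flanks. The value in 2740 sites in introns of protein-coding genes, 0.808 (0.773–0.844), with 0.309 (0.294–0.325) in their flanks, lay inside the interval of the intronic lncRNA sites. By count, 248 of the intronic lncRNA sites held 1 CpG, 47 held 2 and 8 held 3 or more, and 295 held none. The site of LINC00511 printed above, with 3 CpG in 17 bases, is among the richest, and that of MIR100HG holds none.

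T, the letter of the labelled uridine, made up 29.0% of the bases of the intronic sites, 30.3% of their flanks and 30.6% of the windows. Of the 657 sites, 13 (1.98%, 1.16–3.36%) held no T at all, against 1.29% (0.809–2.06%) of the 1314 windows. Short motifs of other RNA-binding proteins were rare on the strand of the site, and rare in the windows too. The run of 7 uridines (TTTTTTT) was in 0 sites, which allows a share of up to 0.457%, and in 16 windows (1.22%). AGAAAAA, listed for the poly(A)-binding protein PABPC1, was in 5 sites (0.761%) and 6 windows (0.457%), and AAAAAAA, listed for PABPC4, in 8 sites (1.22%) and 7 windows (0.533%). On both strands together, AAAAAAA and its complement were in 8 sites (1.22%) and 22 windows (1.67%). GCTGGAC or GCTGGCC, listed for SAMD4A, was in 0 sites and 3 windows, and on both strands together in 2 sites and 4 windows. The polyadenylation signal AATAAA was in 10 sites (1.52%) and 22 windows (1.67%), and it was in the 50 bases after 35 sites (5.33%, 3.86–7.32%) and after 46 windows (3.50%, 2.63–4.64%), with overlapping intervals.

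A few sites shared runs of letters with microRNAs encoded elsewhere. The sites and windows of at least 13 bases were compared with the 2545 human mature microRNAs of RefSeq. A run of 13 or more bases was shared by 13 of 588 sites (2.21%, 1.30–3.75%) and by 8 of 1176 windows (0.680%, 0.345–1.34%), intervals that overlap slightly. At shorter runs the order was the opposite, with 20.2% of sites and 24.2% of windows at 10 or more bases and 5.88% and 7.71% at 11 or more, and at 12 or more it was 2.76% and 1.54%. The run of 13 or more began at base 1 or 2 of the mature microRNA in 10 of the 13 sites (76.9%, 49.7–91.8%) and in 2 of the 8 windows (25.0%, 7.15–59.1%), with overlapping intervals. In the lines below, capitals mark the shared run, first in the site and then in the microRNA, written with T for U.
GNAS-AS1 exonic site: tTGAGGTAGTAGTTTGc
let-7g-5p: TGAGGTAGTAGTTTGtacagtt
ENSG00000238207 intronic site, chr2:117763643-117763662, minus strand: aTGGCTCAGTTCAGCAaaaa
miR-24-3p: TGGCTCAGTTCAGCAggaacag
LINC02506 intronic site, chr4:32012494-32012510, plus strand: TAGCAGCACGTAAAcaa
LINC02542 intronic site, chr6:81903849-81903867, minus strand: cTAGCAGCACGTAAgtgtt
miR-16-5p: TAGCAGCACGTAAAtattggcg
LINC01787 exonic site, chr1:96254193-96254208, minus strand: gTCCCTGAGACCCTga
miR-125a-5p: TCCCTGAGACCCTttaacctgtga

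The run was 15 bases in GNAS-AS1, where let-7i-5p shares the same letters, and in ENSG00000238207, whose lowest p-values were 2.30e-60 and 2.08e-65. It was 14 bases in LINC02506 and 13 in LINC02542, so that intronic sites of different genes on chromosomes 4 and 6 both carried the start of miR-16-5p. The peaks of both were strong, with p-values listed as 0 and 1.40e-205. That of LINC01787 was weaker, at 8.37e-05, and its letters were found at 8 places in the genome, whereas the sites of GNAS-AS1, ENSG00000238207, LINC02506 and LINC02542 were each found once. Other runs from base 1 or 2 were those of miR-20a-5p in ENSG00000227088, a weak site (2.02e-02) found at 55 places, of miR-27a-3p and miR-27b-3p in ENSG00000259712, found at 86 places, of miR-3168 in ENSG00000233891, and of miR-4668-5p, a run rich in A, in ENSG00000231918 and LINC02067. The runs of miR-31-5p in ENSG00000235495, miR-503-3p in LINC02227 and miR-361-3p in MIR3667HG began further in. Whether reads of the microRNAs themselves were placed at these sites was not tested, since the reads were not analysed here.

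Runs shared with tRNA genes were longer. Against the 443 tRNA genes of RefSeq, read on both strands, 19 of 588 sites (3.23%, 2.08–4.99%) and 1 of 1176 windows (0.0850%, 0.0150–0.480%) shared 13 or more bases, and the intervals do not overlap. With 14 or more bases the counts were 8 sites and 0 windows. The core of the B box, the internal promoter in the TΨC arm of tRNA genes, written GTTCGANNC, was on the strand of 6 sites (0.913%) and in 0 windows, and in 21 sites of protein-coding introns (0.766%). The longest runs are printed below, with the shared letters in capitals. Runs were followed up to 30 bases, so letters beyond that in EPCAM-DT are in lower case whether or not they are shared.
EPCAM-DT intronic site, chr2:47280762-47280793, minus strand: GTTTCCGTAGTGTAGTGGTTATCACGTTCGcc
ENSG00000260464 exonic site, chr1:93847631-93847658, plus strand: TTCCGGGTTCGAGTCCCGGCGGAGTCGt
POLG-DT exonic site, chr15:89335118-89335141, plus strand: ATTGCAGGTTCGAGTCCTGCCGCG
PGLS-DT intronic site, chr19:17507110-17507129, minus strand: agTCCTGGGTTCGAATCCCA

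The exonic sites of ENSG00000260464 and POLG-DT lay in tRNA genes themselves, the former running 1 base past the end, in the arginine tRNA genes TRR-TCT1-1 and TRR-TCG1-1 of RefSeq. The gene annotation that set the rule holds no tRNA genes. Their p-values were 2.26e-54 and 3.99e-187, and each site was found once in the genome. The site in EPCAM-DT matched at least 30 bases, the longest run searched, of 16 tRNA genes. The valine tRNA genes TRV-AAC1-1 and TRV-AAC1-2 were among them, and the letters of the whole site were found at 18 places in the genome. The PGLS-DT site shared 18 bases with 10 tRNA genes, the threonine tRNA gene TRT-AGT1-1 among them, and was found once. In all, 4 of the 1087 peaks, 2 per site, lay in RefSeq tRNA genes, out of 15 such peaks in the whole list. The SNHG1 site lay in the snoRNA gene SNORD29 of RefSeq (chr11:62853904-62853968), so that by this annotation its letters are those of a snoRNA. Without these 6 peaks the exonic share was 8.23% and the ratio of exon to intron density 1.48.

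Most sites long enough to be searched were nonetheless unique. Of the 527 sites of at least 14 bases, 430 (81.6%, 78.1–84.7%) were found once in the genome, counting both strands, 56 were found 2 to 10 times, and 41 were found more often, up to 495 times. The share found once was 87.0% (74.3–93.9%) in exons and 81.1% (77.3–84.3%) in introns. Shorter sites were not searched, among them that of CRNDE, which is 12 bases long. No site had the whole sequence of another.

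lncRNA genes that host small RNAs were considered by name. The lists hold genes whose symbols are known from the literature, and each count stands beside the 5.10% of all eligible genes. Of 28 eligible microRNA host genes, 13 held a peak in their eligible bases (46.4%). The genes of this list are long, with a median of 73.6 kb against 9.48 kb over all eligible genes. They also held more peaks per base, at 29 in 5.10 Mb of eligible bases, against 1087 in 379 Mb over all eligible genes. The cause was not tested. Peaks within the small RNAs were more numerous, at 70 in 16 of the 28 genes, against 29 in the eligible bases. In 9 of these 16 genes no peak lay in the eligible bases. These come to 162 kb for the 9, where the densities of lncRNA exons and introns above would give less than 1. MIR17HG, host of the miR-17/92 cluster, held 12 peaks, all in small RNA genes. MIR193BHG held 6 and MIR200CHG 5 in the same way. In contrast, MIR924HG held 6 peaks, all in its introns and none in a small RNA gene. MIR100HG held 4 intronic peaks and 7 in small RNA genes, MIR99AHG 3 and 7, DLEU2 2 and 5, MIRLET7BHG 2 and 3, MIR181A1HG 1 and 5, MIR29B2CHG 1 and 3, and MIR34AHG 1 and 1. MIR9-3HG, DLEU1, MIR4300HG and MIR4500HG held 2 peaks each and MIR3667HG 1, with none in a small RNA gene. MIR4713HG held 2 peaks in no small RNA gene, but in bases that the rule excludes. MIR137HG held 5 peaks, 3 of them in small RNA genes and the others in such excluded bases.

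In 21 eligible snoRNA host genes, peaks in small RNA genes numbered 35, in 8 of the genes. None of these 8 held a peak elsewhere, but their eligible bases come to 37.1 kb in all, where the densities above would give less than 1. They were led by ZFAS1 with 9 and SNHG12 with 6. SNHG1 and SNHG14 (9.52% of the list) were the genes with peaks in eligible bases, and the peaks of SNHG1 were those in SNORD29. SNHG5 held 2 peaks on its strand in no small RNA gene, but in bases that the rule excludes. SNHG14, the host of snoRNA clusters in the imprinted region of chromosome 15, held 2 exonic and 2 intronic peaks, with p-values from 6.64e-64 to 4.75e-38.

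The other lists were small. None of 6 eligible nuclear and structural lncRNAs held a peak, among them MALAT1 and NEAT1, which reside in nuclear speckles and paraspeckles, but these genes have 153 kb of eligible bases in all, where the densities above would give less than 1 peak. Of 5 eligible cytoplasmic lncRNAs, 1 held a peak, CRNDE in an exon, and NORAD, CYTOR and DANCR held none. Of 7 eligible imprinted lncRNAs, SNHG14 and GNAS-AS1 (28.6%) held peaks, those of GNAS-AS1, which is transcribed antisense to the imprinted GNAS locus, lying in a first exon. The peaks counted for MEG8 and MEG9, 3 and 2, were all in small RNA genes. Of 13 eligible lncRNAs associated with cancer, 2 (15.4%) held peaks. CASC15 held 2 intronic peaks at p-values of 3.71e-41 and 3.78e-41, and LINC00511 held 4, the strongest at 1.05e-42. The small lists and long genes leave no order among them. By naming class, 80 of 832 antisense genes (9.62%), 163 of 1967 LINC genes (8.29%, median length 17.8 kb), 21 of 463 divergent genes (4.54%, 8.94 kb) and 253 of 7369 genes with an identifier only (3.43%, 6.41 kb) held a peak. The antisense genes had the highest median length, so the order of the shares was that of whole gene lengths. Peaks could be counted only in eligible bases, which come to 33.8 Mb for the antisense genes and 108 Mb for the LINC genes. Per gene this is less for antisense than for LINC genes, so the shares did not follow eligible bases. Whether length accounts for the shares was not tested.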

How the data were processed

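PAR-CLIP peaks of 1 V5-RRN3 immunoprecipitate against 1 input were analysed as deposited. The authors' fold enrichment is a ratio per peak of unknown scaling. The test behind the deposited p-value is unknown too. The score and the false discovery rate, as deposited, are 1 for every peak, so the p-value alone ranked peaks. The aligner and peak caller are not given in the sources used here; the submitters' processing notes name GRCh38. Read numbers per peak were not analysed here. The listed start was taken as counted from 0, since 62 of 92 plus-strand sites at mature microRNAs start 1 base before the microRNA.

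Midpoints were placed on GENCODE release 44, and touching peaks of a strand were joined into sites. A site holding 1 exonic peak counted as exonic. Shares have 95% Wilson intervals, also for CpG, and densities exact Poisson intervals. Peaks and genes are not replicates, so no p-value across them is given. The windows lie 1 kb to each side of each site. tRNA genes, microRNAs and promoters are those of RefSeq on GRCh38. Sequence matches are exact. The named genes are the 12 lncRNA genes with most sites, those of 6 lists that held a peak, and 5 of the further genes with the lowest p-value; ties were broken by number of peaks and then by symbol, which split a tie at both limits; genes shown for a shared run, and those without peaks, were chosen after their values were seen. The members, lists and comparisons were chosen with earlier results of these data known. Placement, joining and matching were tested on simulated data. The tools were pysam 0.24.0, samtools 1.23.1, scipy 1.17.1, pandas 2.3.3, numpy 2.4.6 and matplotlib 3.10.9 under Python 3.11.15.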

Additional observations from a re-analysis of the deposited data

How the results depend on the processing

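Of 45 alternative values of 7 results, 39 stayed within the interval of the value reported or, for counts, within 1.5 times it. With the 3896 listed peaks of lowest p-value alone there were 523 peaks in 256 lncRNA genes, since fewer peaks enter, and the CpG ratio of intronic sites was 0.748. Joining touching peaks gave 657 sites in place of 1087 peaks. Excluding protein-coding genes of the same strand alone, and not of the other, raised the exonic share to 10.8%; the cause was not tested. Without the 6 peaks in RefSeq tRNA and snoRNA genes, an alternative chosen after seeing the data, 0.278% of the peaks lay within 1 kb of a small RNA gene. Leaving out DISC1FP1 (8 peaks), placing peaks by any overlapping base and using basic transcripts kept every value within these limits. Intronic sites outside repeats were not run, because the reference used here does not mark repeats. No paired analysis was possible because each group has 1 library. With 1 immunoprecipitate and no library without the tag, neither the spread between experiments nor signal unrelated to RRN3 can be measured.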

Other observations

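Per chromosome, the density of peaks in lncRNA genes ran from 1.98 per Mb of eligible bases on chromosome 6 (55 peaks) to 5.23 on chromosome 20 (39 peaks). Chromosomes 16 and 19, at 3.99 and 4.08 per Mb, also stood above chromosomes 1, 3, 4 and 5, which lay between 2.16 and 2.66. Density did not follow size throughout. Chromosome 2 stood at 3.00, and the smaller chromosomes 10, 13 and 22 at 2.21, 2.43 and 3.04. By position rather than by name, 28 of 164 eligible hosts of a microRNA gene (17.1%, median length 55.2 kb) held a peak in eligible bases. So did 12 of 71 hosts of a snoRNA or scaRNA gene (16.9%, 27.9 kb). Of all eligible lncRNA genes, with their median of 9.48 kb, 5.10% held one. On the plus strand lay 566 of the 1087 peaks (52.1%, 49.1–55.0%).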
